A study of Mus musculus with 10 samples.

Results

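The genes described here were those whose level in back skin differed in the middle of a time course, 12h and 24h after a dose of cyclophosphamide, from both its start and its end. The 12h and 24h libraries (4) were set against the 0h and 48h libraries (4), which makes 8 of the 10 libraries of the series, and the 2 libraries of 6h were left out of every test. Skin of 12h, 24h and 48h came from mice given 150 mg/kg cyclophosphamide into the abdomen on day 9 after hair on the back was removed with wax, and skin of 0h was taken before the injection. All groups were wild type male C57BL/6 mice of 7-8 weeks, all had been depilated, and the tissue was full-thickness back skin. No mice given solvent alone are among these samples, so time after injection and time after depilation cannot be told apart. Nor is the hour of day of sampling named, and its share in any difference cannot be told apart. Whether both libraries of a time stem from different mice is not stated, so p-values here reflect the spread between libraries alone, and that spread may be technical.

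Cyclophosphamide is converted in the liver to products that crosslink DNA, which stops cells that are copying DNA or about to divide. Depilation starts a new growth phase (anagen) of the hair follicle, in which matrix cells at the base of the follicle divide quickly and mature upwards into the hair shaft and into the inner root sheath that moulds it. Cells that pass from DNA replication into mitosis switch on 1 group of genes for S phase and a later group for G2 and mitosis, and the later group is controlled in mouse and human cells through short promoter elements, the cell cycle homology region and the CCAAT box. Full-thickness skin also holds epidermis, dermis, fat, vessels, immune cells and a thin layer of striated muscle.

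Levels are FPKM (fragments counted per kilobase of a transcript, relative to all mapped fragments), and differences are given on the log2(FPKM + 1) scale, which understates the change of genes with low levels. The difference called the contrast is the mean of 12h and 24h minus the mean of 0h and 48h, tested with limma. A gene is called transient here if its contrast had an adjusted p under 0.05 and if all 4 libraries of 12h and 24h lay above, or all 4 below, all 4 libraries of 0h and 48h. Groups that do not overlap are thus a condition for every transient gene and add no support to it. Where a library or a time was left out, the same rule was applied to the libraries that remained. A gene called transient without 0h thus need not differ from 0h, and likewise for the other times. Libraries carry the numbers 2 and 3 of the deposited table, and values of a time are given in that order.

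Of 13625 genes tested, 352 were transient (2.58%), of which 105 were higher (0.771%) and 247 lower (1.81%) at 12h and 24h than at 0h and 48h. The contrast alone passed for 520 genes (3.82%), 179 higher (1.31%) and 341 lower (2.5%), and in 168 of these the libraries overlapped. Taken alone, 12h differed from 0h and 48h in 88 genes that were higher (0.646%) and 174 lower (1.28%), and 24h in 72 higher (0.528%) and 66 lower (0.484%); both share the 0h and 48h libraries. The excess of lower genes depended on the scaling between libraries. Scaled by the median of ratios, 185 genes were transient and higher (1.36%) and 114 transient and lower (0.837%), and with quantile normalization the counts were 175 higher and 123 lower. All 352 genes kept their sign under both scalings, and 96 of the higher and 108 of the lower genes passed the contrast as deposited, under both scalings and with hair genes left out. Genes of the hair shaft took 16.58% and 17.22% of the summed FPKM at 12h and 18.68% and 15.6% at 24h, against 11.25% and 13.5% at 0h and 17.73% and 15.65% at 48h; with these genes left out, 108 genes were higher and 153 lower.

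Single libraries weighed heavily on the number of calls. With library 2 left out, the count of 352 became 4 at 0h, 173 at 24h and 129 at 48h. With library 3 left out, it became 100 at 0h, 83 at 12h and 25 at 48h. All 352 genes kept their sign whichever of the 8 libraries was left out, and 2 of them, Flnc and Sap25, passed the contrast in each of those 8 fits. The kept sign was fixed in advance, because the groups of a transient gene do not overlap by definition, and it does not show stability. With no filter on low values, 0 genes passed in limma, with 3676 at an unadjusted p under 0.05, against 3254 with the filter.

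**Figure D1:**
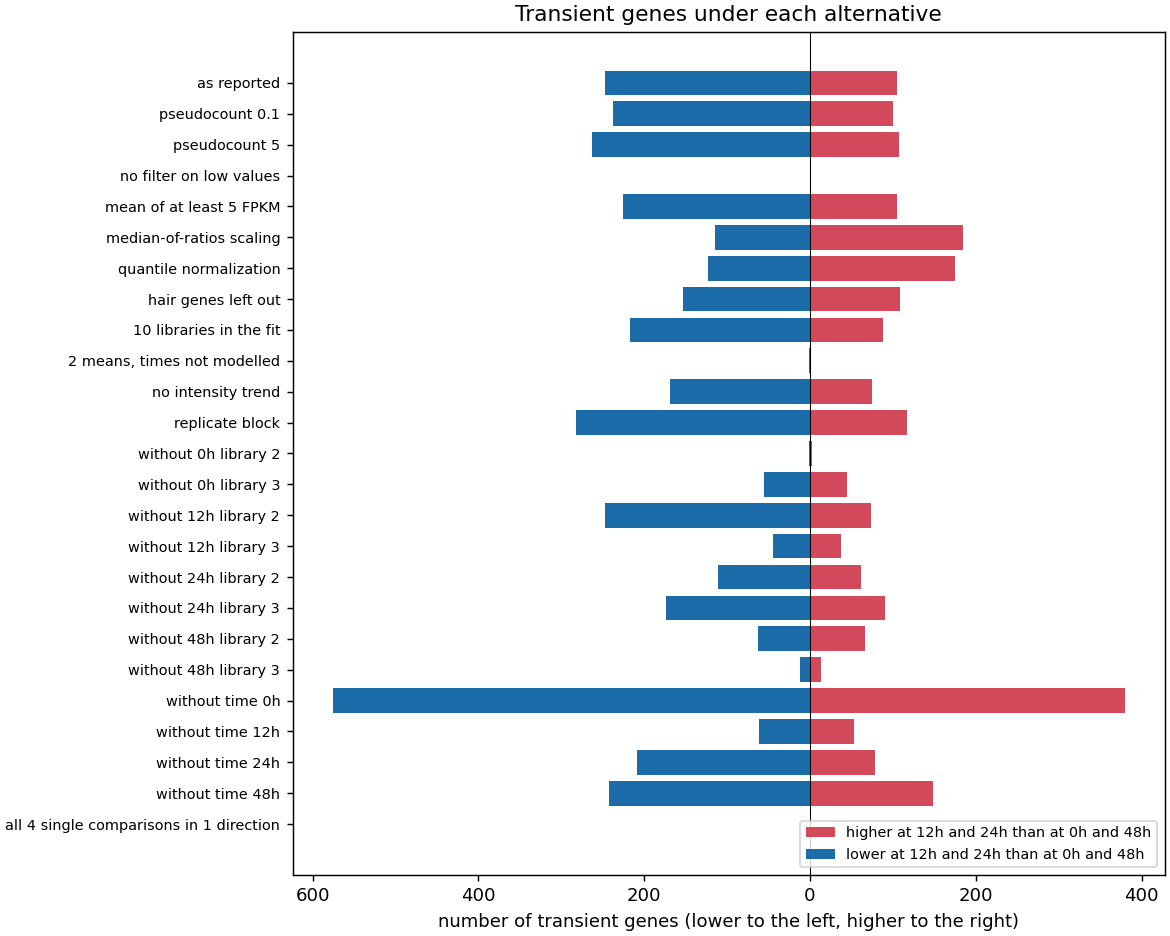
Number of transient genes as reported and under each alternative (horizontal axis, genes higher at 12h and 24h to the right of 0, genes lower to the left). The count of 105 higher and 247 lower genes became 185 higher and 114 lower after median-of-ratios scaling and 4 in all without 0h library 2.

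Summed FPKM of a library lay between 862653 and 978550, and the relative depth read from the lowest values was lowest in 0h library 2 (1.0) and highest in 0h library 3 (1.42). Correlations of log2(FPKM + 1) were 0.984 to 0.989 within a time and 0.966 to 0.987 between times. Markers of keratinocytes (summed FPKM 7086 to 10310 at 12h and 24h, 7322 to 14920 at 0h and 48h), fibroblasts (1600 to 2722, against 2247 to 3101), fat cells (2976 to 4646, against 2534 to 4328) and skeletal muscle (8802 to 12760, against 8571 to 21920) were present in every library.

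Genes of G2 and mitosis made up the largest group of transient genes among the lists examined. Of 47 tested, 30 were transient and lower at 12h and 24h and 0 were transient and higher, beside 1.81% and 0.771% of all genes. Their median contrast was -0.78, beside -0.08 over all genes tested. In 41 of the 47 the libraries did not overlap, lower at 12h and 24h, and in 0 they did not overlap with higher values, beside 7.5% and 1.95% of all genes. The summed FPKM of the list was 529.5 and 359.1 at 12h and 571.5 and 420.2 at 24h, against 871.4 and 858.0 at 0h and 849.2 and 876.1 at 48h. All 4 libraries of 12h and 24h lay below the lowest library of 0h and 48h. In whole skin, fewer dividing cells and less of these transcripts per cell cannot be told apart.

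The promoters of 3 of these genes and of an interferon-response gene described further on are shown because each group shares short promoter elements that were counted here. They run 5′ to 3′ on the gene's strand, from 250 bases before to 50 bases after the RefSeq gene start (mouse build GRCm38.p6). Capitals in Cdc20 (chr4:118437294-118437593, minus strand), Cenpa (chr5:30666636-30666935, plus strand) and Ccnb2 (chr9:70421505-70421804, minus strand) mark TTTGAA, the core of the cell cycle homology region, and CCAAT, each on either strand. Capitals in Isg15 (chr4:156200769-156201068, minus strand) mark 3 overlapping copies of the core of the interferon-stimulated response element, searched as GAAA, any 2 bases and GAAA on either strand.
Cdc20: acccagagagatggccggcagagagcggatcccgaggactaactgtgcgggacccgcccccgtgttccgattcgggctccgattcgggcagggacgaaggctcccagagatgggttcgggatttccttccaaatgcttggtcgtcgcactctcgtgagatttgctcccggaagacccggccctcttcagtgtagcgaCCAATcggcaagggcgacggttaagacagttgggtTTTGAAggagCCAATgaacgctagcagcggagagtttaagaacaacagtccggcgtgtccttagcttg
Cenpa: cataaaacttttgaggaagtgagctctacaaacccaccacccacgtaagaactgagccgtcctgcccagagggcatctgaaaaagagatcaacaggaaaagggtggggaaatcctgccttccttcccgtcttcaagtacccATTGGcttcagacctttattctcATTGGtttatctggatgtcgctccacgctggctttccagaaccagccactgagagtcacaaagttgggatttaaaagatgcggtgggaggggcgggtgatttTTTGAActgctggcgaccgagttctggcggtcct
Ccnb2: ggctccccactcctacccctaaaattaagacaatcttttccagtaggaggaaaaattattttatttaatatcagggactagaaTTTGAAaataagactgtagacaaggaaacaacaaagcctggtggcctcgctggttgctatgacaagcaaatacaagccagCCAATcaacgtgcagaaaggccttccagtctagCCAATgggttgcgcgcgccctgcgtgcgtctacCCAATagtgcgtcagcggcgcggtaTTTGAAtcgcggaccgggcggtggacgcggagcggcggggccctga
Isg15: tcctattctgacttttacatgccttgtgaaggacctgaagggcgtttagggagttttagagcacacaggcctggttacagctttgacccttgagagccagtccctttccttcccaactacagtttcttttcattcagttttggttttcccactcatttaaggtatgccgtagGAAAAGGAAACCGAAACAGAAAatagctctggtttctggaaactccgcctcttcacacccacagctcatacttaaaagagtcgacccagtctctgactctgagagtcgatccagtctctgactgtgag

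TTTGAA was found on either strand in 29 of the 42 genes of G2 and mitosis with a promoter in the table, and in 18 of the 27 of them that were transient. It stood in 14.7% of the 10286 tested genes with a promoter and in 17.9% of all 32851 promoters of that length. CCAAT was found in 32 of the 42 genes and in 22 of the 27 transient ones, beside 42.3% of tested genes and 37.4% of all promoters. Both motifs were chosen after the changes of these genes had been seen, and a match describes the sequence and is not a binding site.

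The genes themselves cover the steps of mitosis. Cenpa, the histone H3 variant that marks the centromere, had 17.8 and 11.4 FPKM at 12h and 18.7 and 11.02 FPKM at 24h, against 39.6 and 32.8 FPKM at 0h and 35.9 and 32.1 FPKM at 48h. Its highest library of 12h and 24h was below its lowest library of 0h and 48h, and its contrast was -1.23 (SE 0.18; limma adjusted p = 0.0164). Cdca8 (borealin, a subunit of the chromosomal passenger complex; chr4:124918465-124939311) had 10.6 and 8.6 FPKM at 12h and 11.7 and 9.31 FPKM at 24h, against 28.5 and 23.8 FPKM at 0h and 20.8 and 22.9 FPKM at 48h. The groups stood apart by a wide gap, and the contrast was -1.18 (SE 0.11; limma adjusted p = 0.00992).

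Cdc20, the activator of the anaphase-promoting complex, had 24.5 and 12.1 FPKM at 12h and 30.5 and 15.9 FPKM at 24h, against 44.1 and 40.1 FPKM at 0h and 50.03 and 49.6 FPKM at 48h. Library 3 was the lower one at both middle times, and all 4 lay below 0h and 48h (contrast -1.19, SE 0.24; limma adjusted p = 0.0339, and 0.0554 after median-of-ratios scaling). Cyclin B2 (Ccnb2), which activates Cdk1 at the entry into mitosis, had 14.6 and 7.8 FPKM at 12h and 18.3 and 12.9 FPKM at 24h, against 27.9 and 29.5 FPKM at 0h and 32.5 and 29.8 FPKM at 48h. Again no library of one group reached the other (contrast -1.15, SE 0.18; limma adjusted p = 0.0186).

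The mitotic kinases Plk1 (contrast -1.13, SE 0.20; limma adjusted p = 0.024) and Aurka (-1.11, SE 0.21; 0.0315, and 0.0503 after median-of-ratios scaling) fell likewise, as did Cdc25c, the phosphatase that activates Cdk1 (-1.06, SE 0.19; 0.0249). So did Ube2c, the ubiquitin-conjugating enzyme of the anaphase-promoting complex, with 41.5 and 27.4 FPKM at 12h and 56.3 and 27.9 FPKM at 24h, against 76.8 and 72.6 FPKM at 0h and 72.1 and 90.3 FPKM at 48h (limma adjusted p = 0.0358, and 0.0613 after median-of-ratios scaling). Mki67, the gene of the proliferation antigen Ki-67, had 10.8 and 6.75 FPKM at 12h and 8.58 and 6.2 FPKM at 24h, against 15.8 and 19.5 FPKM at 0h and 13.1 and 13.7 FPKM at 48h. All 4 middle libraries were again the lowest of the 8 (contrast -0.87, SE 0.15; limma adjusted p = 0.0249). Mxd3, a MAX-binding repressor that is expressed in cycling cells and was not on the list, was among the 15 largest falls (contrast -1.11, SE 0.17; limma adjusted p = 0.0176).

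Across the 30 transient genes of G2 and mitosis the contrast ran from -1.23 to -0.56. The difference of 48h minus 0h ran from -0.61 to 0.40 in them, with a median of 0.14, and it passed in 0 of the 30. In 26 of the 30 it was smaller than 0.5 times the contrast. The fall was further at 12h than at 24h in 23 of them, and the median differences of the list were -0.79 at 12h and -0.71 at 24h. The 6h libraries, which were not used in the test, had summed FPKM of 571.4 and 472.9, within the range of the 12h and 24h libraries.

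The number of these calls moved with the libraries and the scaling. It was 19 and 18 with median-of-ratios and quantile scaling, and without library 2 it was 0 (0h) and 7 (48h). Without library 3 it was 4 (0h), 9 (12h), 18 (24h) and 1 (48h). It was 16, 11, 21 and 7 without the times 0h, 12h, 24h and 48h.

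**Figure D2:**
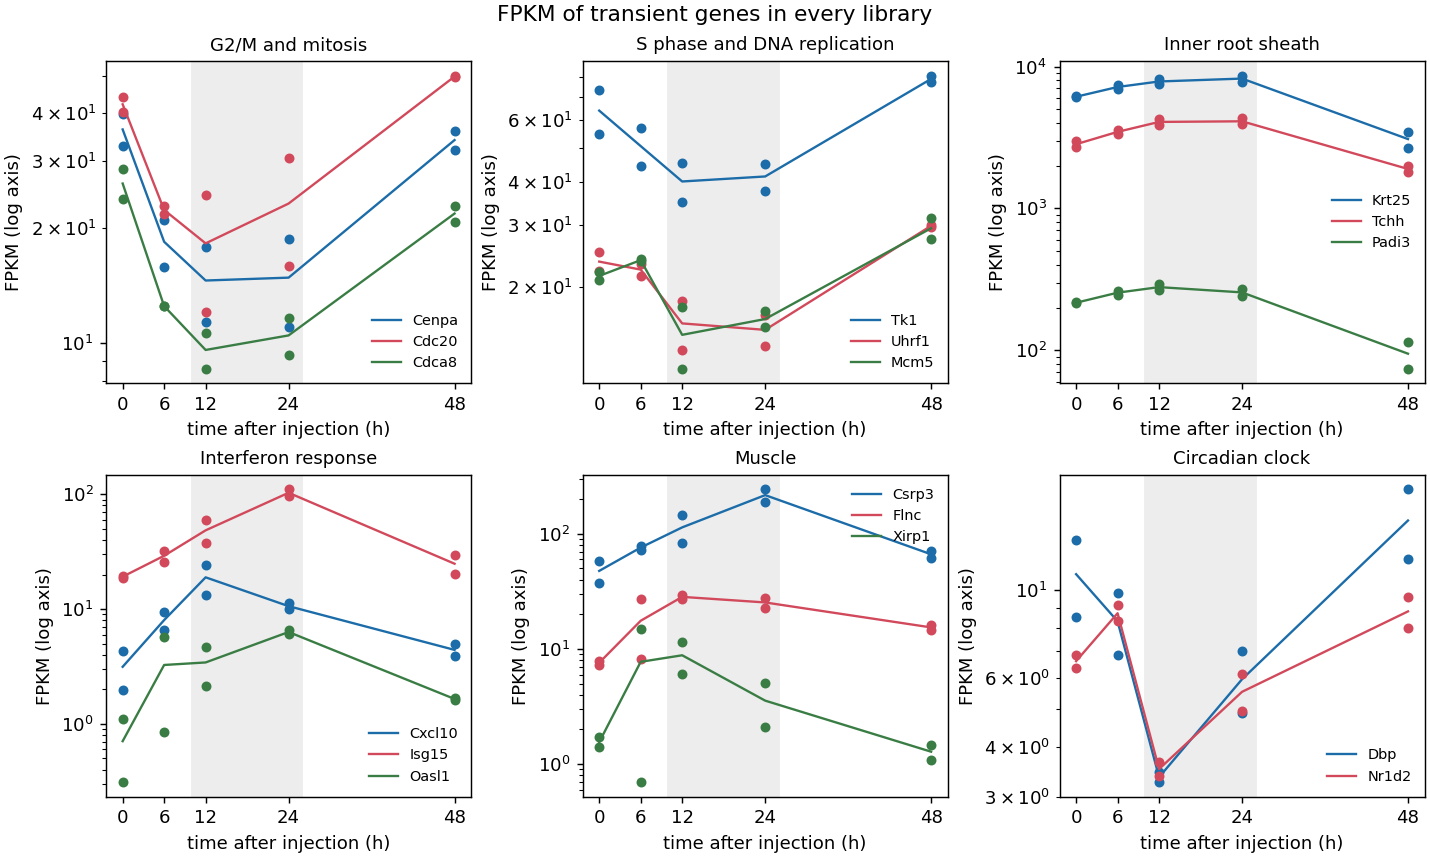
FPKM (log axis) against hours after injection for 17 transient genes in 6 panels, with a point for each library, a line through the mean of a time and the 12h and 24h times shaded. Cenpa lay between 11.02 and 18.7 FPKM at 12h and 24h, below its 32.1 to 39.6 FPKM at 0h and 48h, while Isg15 lay between 37.4 and 111 FPKM, above its 18.8 to 29.5 FPKM.

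Some genes of S phase and DNA replication fell too. Of 49 tested, 12 were transient and lower and 0 higher, beside 1.81% and 0.771% of all genes. Their median contrast was -0.36, beside -0.08 over all genes tested. Summed FPKM was 768.9 and 613.7 at 12h and 651.5 and 733.4 at 24h, against 868.0 and 870.9 at 0h and 1002 and 1071 at 48h, so the groups did not overlap. Thymidine kinase 1 (Tk1), which supplies dTTP for replication, had 45.1 and 35.0 FPKM at 12h and 37.7 and 45.1 FPKM at 24h, against 73.0 and 54.8 FPKM at 0h and 77.1 and 80.5 FPKM at 48h (contrast -0.79, SE 0.12; limma adjusted p = 0.0176). Uhrf1, which keeps DNA methylation through replication, had a contrast of -0.76 (SE 0.12; limma adjusted p = 0.0176), and Gins1, a part of the replicative helicase, of -0.69 (SE 0.12; 0.0244). Mcm5, another part of that helicase, had 17.5 and 11.7 FPKM at 12h and 15.3 and 17.0 FPKM at 24h, against 20.9 and 22.1 FPKM at 0h and 31.5 and 27.4 FPKM at 48h (contrast -0.69, SE 0.12; limma adjusted p = 0.0254).

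In these 12 genes the point value of 48h was above that of 0h throughout, by 0.04 to 0.46 with a median of 0.31, and the difference passed in 0 of the 12. The 6h libraries differed from the pattern of the mitotic list: their summed FPKM was 988.2, within the range of 0h and 48h, and 838.9, just below it, and both lay above the 12h and 24h libraries. The count of 12 became 9 under each of both scalings, and without library 2 it was 0 (0h), 3 (24h) and 1 (48h). Without library 3 it was 4 (0h), 1 (12h) and 0 (48h). It was 1 without either 12h or 48h as a time.

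Some keratins and hardening proteins of the inner root sheath were higher at 12h and 24h. Of 19 genes tested, 8 were transient and higher and 0 lower, beside 0.771% and 1.81% of all genes. The contrast passed in 10 as higher, beside 1.31% of all genes. Its median was 0.42, beside -0.08 over all genes tested. Krt25, a type I keratin of this sheath (chr11:99315516-99322951), had 8143 and 7544 FPKM at 12h and 8611 and 7833 FPKM at 24h, against 6161 and 6085 FPKM at 0h and 3479 and 2680 FPKM at 48h. The middle libraries were the highest of the 8, and the 48h libraries the lowest (contrast 0.89, SE 0.11; limma adjusted p = 0.0149). Trichohyalin (Tchh), the matrix protein that is crosslinked in the sheath, had 4242 and 3896 FPKM at 12h and 4307 and 3913 FPKM at 24h, against 2696 and 2971 FPKM at 0h and 1986 and 1806 FPKM at 48h (contrast 0.82, SE 0.09; limma adjusted p = 0.0115).

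Padi3, which converts arginines of trichohyalin to citrulline, had 293 and 264 FPKM at 12h and 271 and 241 FPKM at 24h, against 215 and 217 FPKM at 0h and 115 and 74.4 FPKM at 48h (contrast 0.91, SE 0.13; limma adjusted p = 0.015). The 4 libraries of 12h and 24h were above 0h, and 48h was far below it. The related enzyme gene Padi1 had another course, with 82.2 and 83.0 FPKM at 12h and 94.3 and 90.1 FPKM at 24h, against 52.95 and 54.6 FPKM at 0h and 81.2 and 75.4 FPKM at 48h (contrast 0.42, SE 0.07; limma adjusted p = 0.0192). Its 48h libraries stood close under the 12h libraries. The sheath keratins Krt71, Krt27, Krt72 and Krt26 had contrasts of 0.75, 0.54, 0.51 and 0.38.

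These 8 genes did not share a level at 48h. In Padi3, Krt25, Tchh and Krt71 48h was lower than 0h, by -1.22 (95% interval -1.63 to -0.80) in Padi3 and by -1.0 (-1.35 to -0.66) in Krt25, and in Padi1 it was higher, by 0.53 (0.32 to 0.75). Over all 19 genes tested, 9 were lower and 3 higher at 48h than at 0h, with 4.93% and 5.32% of all genes as the background. The count of 8 was 8 with median-of-ratios scaling, and 7 with quantile normalization or with hair genes left out, and it was 2 without the 48h time and 2 without the 12h time. Without library 2 it was 0 (0h), 5 (12h) and 4 (24h), and without library 3 it was 2 (0h), 4 (12h) and 3 (48h).

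Of 15 hair shaft keratins all had a contrast above 0, with a median of 0.26, beside -0.08 over all genes tested. The contrast passed in 3 of them, beside 1.31% of all genes as higher. The transient one was Krt85, with 642 and 698 FPKM at 12h and 672 and 589.8 FPKM at 24h, against 557 and 550.4 FPKM at 0h and 359 and 347 FPKM at 48h (contrast 0.55, SE 0.08; limma adjusted p = 0.0149). The hair cortex keratin Krt35 passed the contrast (0.49, SE 0.10; limma adjusted p = 0.0367), but its 12h and 24h libraries (906, 824, 674 and 515 FPKM) lay between 0h (978 and 942 FPKM) and 48h (282 and 258 FPKM), so it was not transient. Lef1, the transcription factor through which Wnt signals act in the hair matrix, had 20.0 and 16.5 FPKM at 12h and 12.1 and 9.4 FPKM at 24h, against 23.5 and 22.2 FPKM at 0h and 6.47 and 5.48 FPKM at 48h. It went down step by step, and its contrast was 0.22 (SE 0.11; limma adjusted p = 0.262). Without the 48h time the contrast of Lef1 turned to -0.67 and that of Krt35 to -0.43.

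Shh, the growth signal of the follicle, had a contrast of -0.50 (SE 0.17; limma adjusted p = 0.131), and 0 of 13 genes of its pathway were transient. Of 40 genes of the Wnt pathway the receptor gene Fzd2 was transient (contrast -0.36, SE 0.08; limma adjusted p = 0.0467, and 0.0993 after median-of-ratios scaling). Of 23 regulators of the hair matrix and of 53 genes of keratin-associated proteins 0 were transient, with median contrasts of 0.22 and 0.27 and with 16 and 51 genes above 0. With 2.58% of all genes transient, counts this low in lists of these sizes do not set them apart from other genes.

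**Figure D3:**
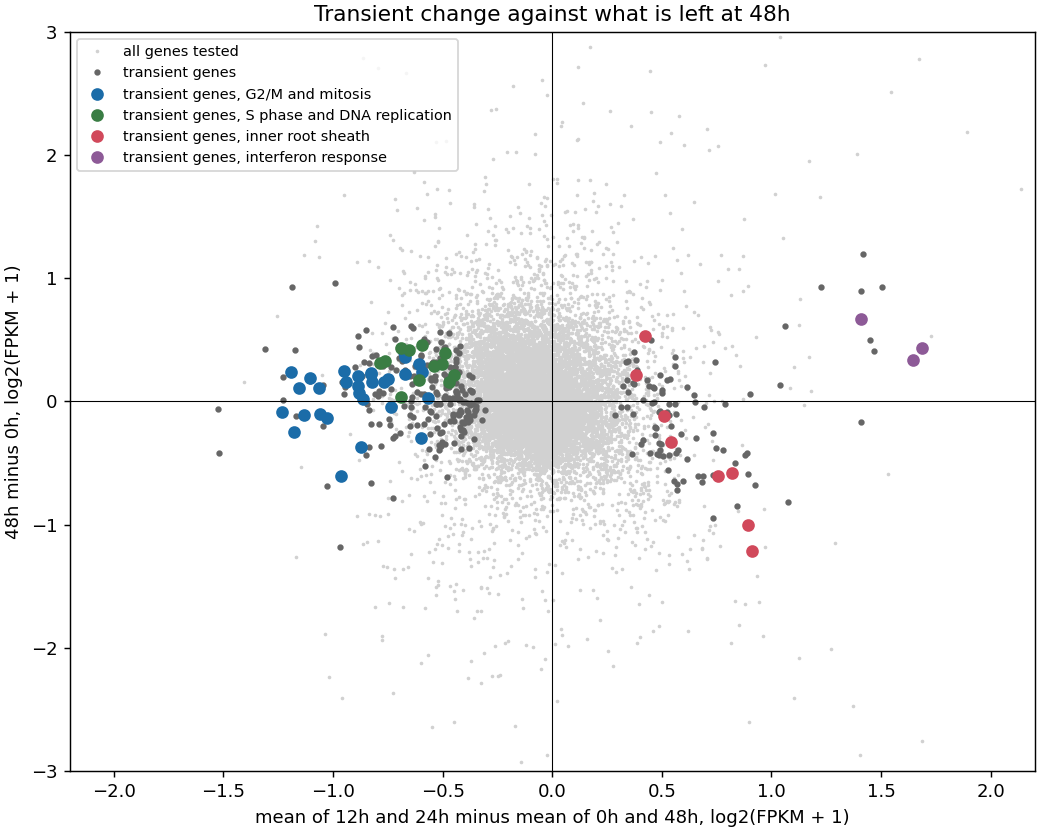
The contrast of 12h and 24h against 0h and 48h (horizontal axis) and 48h minus 0h (vertical axis), both on the log2(FPKM + 1) scale, for all genes tested, with the transient genes of 4 lists coloured and 17 genes outside the axes. The 30 transient genes of G2 and mitosis lie to the left between -0.61 and 0.40 on the vertical axis, whereas the 8 of the inner root sheath lie to the right and spread from -1.22 to 0.53.

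A few of the genes that interferons induce were higher at 12h and 24h. Of 43 tested, 3 were transient and higher and 0 lower, beside 0.771% and 1.81% of all genes. The contrast passed in 7 as higher, beside 1.31% of all genes, and in 0 as lower. Its median was 0.39, beside -0.08 over all genes tested. Isg15, a ubiquitin-like protein whose promoter is printed above with 3 overlapping copies of the response element core, had 37.4 and 59.8 FPKM at 12h and 95.8 and 111 FPKM at 24h, against 19.5 and 18.8 FPKM at 0h and 20.3 and 29.5 FPKM at 48h. Every library of 24h was above every library of 12h, and these above 0h and 48h (contrast 1.65, SE 0.16; limma adjusted p = 0.0115). Cxcl10, a chemokine for T cells, had 13.4 and 24.5 FPKM at 12h and 10.02 and 11.2 FPKM at 24h, against 4.3 and 1.99 FPKM at 0h and 3.88 and 4.95 FPKM at 48h (contrast 1.69, SE 0.22; limma adjusted p = 0.0149). Here 12h was the higher of the middle times.

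Oasl1, of the oligoadenylate synthetase family, had 2.15 and 4.71 FPKM at 12h and 6.61 and 6.03 FPKM at 24h, against 0.311 and 1.1 FPKM at 0h and 1.62 and 1.68 FPKM at 48h (contrast 1.41, SE 0.21; limma adjusted p = 0.0169). That core was found in 17 of the 35 interferon-response genes with a promoter, in 2 of the 3 transient ones (Isg15 and Cxcl10), in 3.65% of tested genes and in 3.44% of all promoters.

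The median of the list differed by time. Its median difference from 0h and 48h was -0.12 at 12h and 0.89 at 24h, and its summed FPKM was 437.3 and 573.5 at 12h and 760.4 and 1191 at 24h, against 551.7 and 695.1 at 0h and 617.0 and 950.7 at 48h. Without the 12h time 13 of its genes were transient and higher, beside 53 of all genes tested. Without the 24h time 2 of its genes were higher and 3 lower, beside 79 and 209 of all genes tested. Of its genes 2 passed the test of 24h against 12h, beside 7 (0.0514%) of all genes tested. Irf7, the transcription factor that amplifies this response, had 32.4 and 40.7 FPKM at 24h, against 10.8 and 12.1 FPKM at 12h (difference 1.59, SE 0.18; limma adjusted p = 0.0386), and Oas2 4.36 and 5.41 FPKM at 24h, against 1.1 and 0.979 FPKM at 12h (1.52, SE 0.16; 0.0218). The count of 3 higher genes was 0 without 0h library 2, 1 without 48h library 3, 7 without 12h library 2 and 4 under either scaling. Marker sums of macrophages and dendritic cells (658.4 to 1064 at 12h and 24h, 807.0 to 1125 at 0h and 48h) and of neutrophils (162.3 to 434.0, against 96.39 to 467.0; Ngp was at 0 in every library) overlapped, and their part in the interferon-response genes was not tested.

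Some genes of other immune and stress lists were transient too, beside 2.58% of all genes tested (0.771% higher and 1.81% lower). Counts this small say little about a list as a whole. Of 28 cytokines and chemokines 2 were transient, Cxcl10 and Il1b. Il1b, an early cytokine of skin injury, had 1.88 and 2.27 FPKM at 12h and 1.59 and 1.43 FPKM at 24h, against 0.60 and 0.808 FPKM at 0h and 1.12 and 1.04 FPKM at 48h (contrast 0.56, SE 0.12; limma adjusted p = 0.0404). Its 6h libraries, at 5.77 and 5.85 FPKM, were the highest of all 10, and the call held in 0 of the 8 fits with a library left out.

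Of 23 acute phase and antimicrobial genes Serpina3m, a serine protease inhibitor of the acute phase, was transient, with 4.37 and 7.72 FPKM at 12h and 6.88 and 9.38 FPKM at 24h, against 1.02 and 1.34 FPKM at 0h and 2.51 and 3.67 FPKM at 48h (contrast 1.41, SE 0.18; limma adjusted p = 0.0149). Serpina3m has close paralogs in the mouse, so its reads may be shared with them. Saa3, an acute phase protein made in skin, passed the contrast (2.54, SE 0.49; limma adjusted p = 0.031) with overlapping libraries: it had 42.2 and 206 FPKM at 12h and 44.5 and 97.8 FPKM at 24h, against 3.53 and 4.86 FPKM at 0h and 53.9 and 22.9 FPKM at 48h. Its 48h libraries were above 0h (2.81, 95% interval 1.25 to 4.38).

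Of 24 genes of stressed epidermis Areg, a ligand of the EGF receptor, and Tgm1, which crosslinks the cornified envelope, were transient and higher; the count was 0 without 0h library 2, 12h library 3 or 48h library 3. The list as a whole was higher at 48h than at 0h, with a median difference of 1.04. Of its genes 7 were higher and 0 lower at 48h, beside 5.32% and 4.93% of all genes. In Areg and Tgm1 48h minus 0h was -0.67 and -0.32, and neither passed. Areg had 13.0 and 13.4 FPKM at 12h and 13.9 and 15.6 FPKM at 24h, against 9.98 and 7.96 FPKM at 0h and 7.15 and 3.74 FPKM at 48h (contrast 0.93, SE 0.16; limma adjusted p = 0.0249). The cornified envelope gene Lce3d, outside the list, was among the 15 largest rises (contrast 1.06, SE 0.21; limma adjusted p = 0.033). So was Plac8, a small cysteine-rich protein, with 31.2 and 30.7 FPKM at 12h and 46.0 and 49.5 FPKM at 24h, against 5.88 and 13.8 FPKM at 0h and 17.5 and 19.0 FPKM at 48h (contrast 1.5, SE 0.20; limma adjusted p = 0.0149). Slc23a3, of the nucleobase and ascorbate transporter family, and Fabp9, a fatty acid-binding protein, were higher at 12h and 24h as well (contrasts 0.90, SE 0.13, and 1.08, SE 0.16, limma adjusted p = 0.015 and 0.0176). Fabp9 had 4.54 and 8.32 FPKM at 12h and 6.99 and 8.86 FPKM at 24h, against 4.25 and 3.79 FPKM at 0h and 1.77 and 1.94 FPKM at 48h. Part of its contrast thus came from the low 48h values (48h minus 0h -0.81, limma adjusted p = 0.0601). Egr1 (contrast 0.53; limma adjusted p = 0.0404) was the transient gene of 24 immediate-early genes, and the kinase gene Map3k6 (0.75; 0.0149) that of 17 glucocorticoid-response genes.

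Of 24 genes of muscle stress and atrophy, Csrp3 and Xirp1 were transient and higher and 0 lower, beside 0.771% and 1.81% of all genes. The median contrast of the list was 0.07. Without library 2 this count of 2 was 0 (0h) and 1 (48h), and without library 3 it was 0 (0h and 48h). Outside the list, 3 of the 15 largest rises (Flnc, Mybph and Mustn1) are genes known from striated muscle; they were grouped so after their values were seen. Filamin C (Flnc), an actin crosslinker of the muscle Z-disc (chr6:29433256-29461883), had 29.5 and 27.2 FPKM at 12h and 27.8 and 22.9 FPKM at 24h, against 7.94 and 7.25 FPKM at 0h and 16.1 and 14.7 FPKM at 48h. The groups stood apart and 48h was above 0h (contrast 1.23, SE 0.09; limma adjusted p = 0.00543; 48h minus 0h 0.93, adjusted p = 0.00432). Csrp3, a muscle LIM protein, had 145 and 82.5 FPKM at 12h and 243 and 189.9 FPKM at 24h, against 57.7 and 37.5 FPKM at 0h and 71.5 and 61.3 FPKM at 48h (contrast 1.45, SE 0.20; limma adjusted p = 0.0149). Xirp1, an actin-binding protein of damaged muscle, had 11.5 and 6.12 FPKM at 12h and 5.02 and 2.1 FPKM at 24h, against 1.4 and 1.71 FPKM at 0h and 1.09 and 1.48 FPKM at 48h (contrast 1.41, SE 0.24; limma adjusted p = 0.023).

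The 6h libraries differed from each other in Xirp1 (0.699 and 14.8 FPKM) and Flnc (8.23 and 26.9 FPKM), whereas Csrp3 had 72.9 and 78.9 FPKM in them. Mybph, a myosin-binding protein (contrast 1.47, SE 0.28, limma adjusted p = 0.0318), and Mustn1, a small protein of muscle and bone (contrast 1.42, SE 0.19, limma adjusted p = 0.0149), were also among the 15 largest rises. Mustn1 was still higher at 48h than at 0h (1.2, limma adjusted p = 0.0264). Of 24 markers of skeletal muscle, 22 had a contrast below 0. Ttn (titin) was the transient one, lower (contrast -0.48, SE 0.10, limma adjusted p = 0.0362, and 0.0666 after median-of-ratios scaling). It had 2.5 and 3.05 FPKM at 12h and 3.02 and 3.09 FPKM at 24h, against 6.01 and 5.51 FPKM at 0h and 3.42 and 3.4 FPKM at 48h. Its 48h level stayed below 0h (-0.62, limma adjusted p = 0.0281). Of the 24 markers, 19 were lower and 1 higher at 48h than at 0h, beside 4.93% and 5.32% of all genes, with a median of -1.29. Their summed FPKM was 8802 and 12760 at 12h and 11630 and 11150 at 24h, against 21920 and 19960 at 0h and 8571 and 9486 at 48h, so that all 4 middle libraries lay far below 0h. Acta1, skeletal muscle actin, had 1427 and 2069 FPKM at 12h and 1800.0 and 2031 FPKM at 24h, against 3031 and 2422 FPKM at 0h and 1736 and 2094 FPKM at 48h (contrast -0.33, SE 0.14; limma adjusted p = 0.201). The part of muscle content in the rises was not tested.

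Of 18 genes of the circadian clock 2 were transient and lower, beside 1.81% of all genes tested. Dbp, a transcription factor that clock proteins drive directly, had 3.46 and 3.27 FPKM at 12h and 4.88 and 7.02 FPKM at 24h, against 13.4 and 8.54 FPKM at 0h and 18.01 and 12.0 FPKM at 48h (contrast -1.31, SE 0.18; limma adjusted p = 0.0149). The repressor gene Nr1d2 had 3.67 and 3.38 FPKM at 12h and 4.94 and 6.12 FPKM at 24h, against 6.36 and 6.86 FPKM at 0h and 8.04 and 9.64 FPKM at 48h (contrast -0.67, SE 0.10; limma adjusted p = 0.0179). In both genes 12h was lower than 24h.

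Its paralog Nr1d1 passed the contrast (-0.79, SE 0.11; limma adjusted p = 0.0152), but 1 of its 24h libraries overlapped 0h, with 5.72 and 7.26 FPKM at 12h and 12.3 and 14.9 FPKM at 24h, against 17.4 and 13.9 FPKM at 0h and 19.1 and 17.8 FPKM at 48h. Per2, of the negative limb of the clock, had a contrast of -0.05 (SE 0.14; limma adjusted p = 0.862). The clock list had 0 transient genes without the 12h time, 0 passed the contrast without 0h library 2, and 8 were transient and lower without the 0h time. With 0h left out, 12h and 24h were set against 48h alone, so these 8 genes need not differ from 0h. In that setting 576 of the 13625 genes tested were called lower. CACGTG, the E-box that clock proteins bind, stood in 5 of 16 clock genes with a promoter and in 0 of the 2 transient ones, beside 11.5% of tested genes and 7.15% of all promoters.

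**Figure D4:**
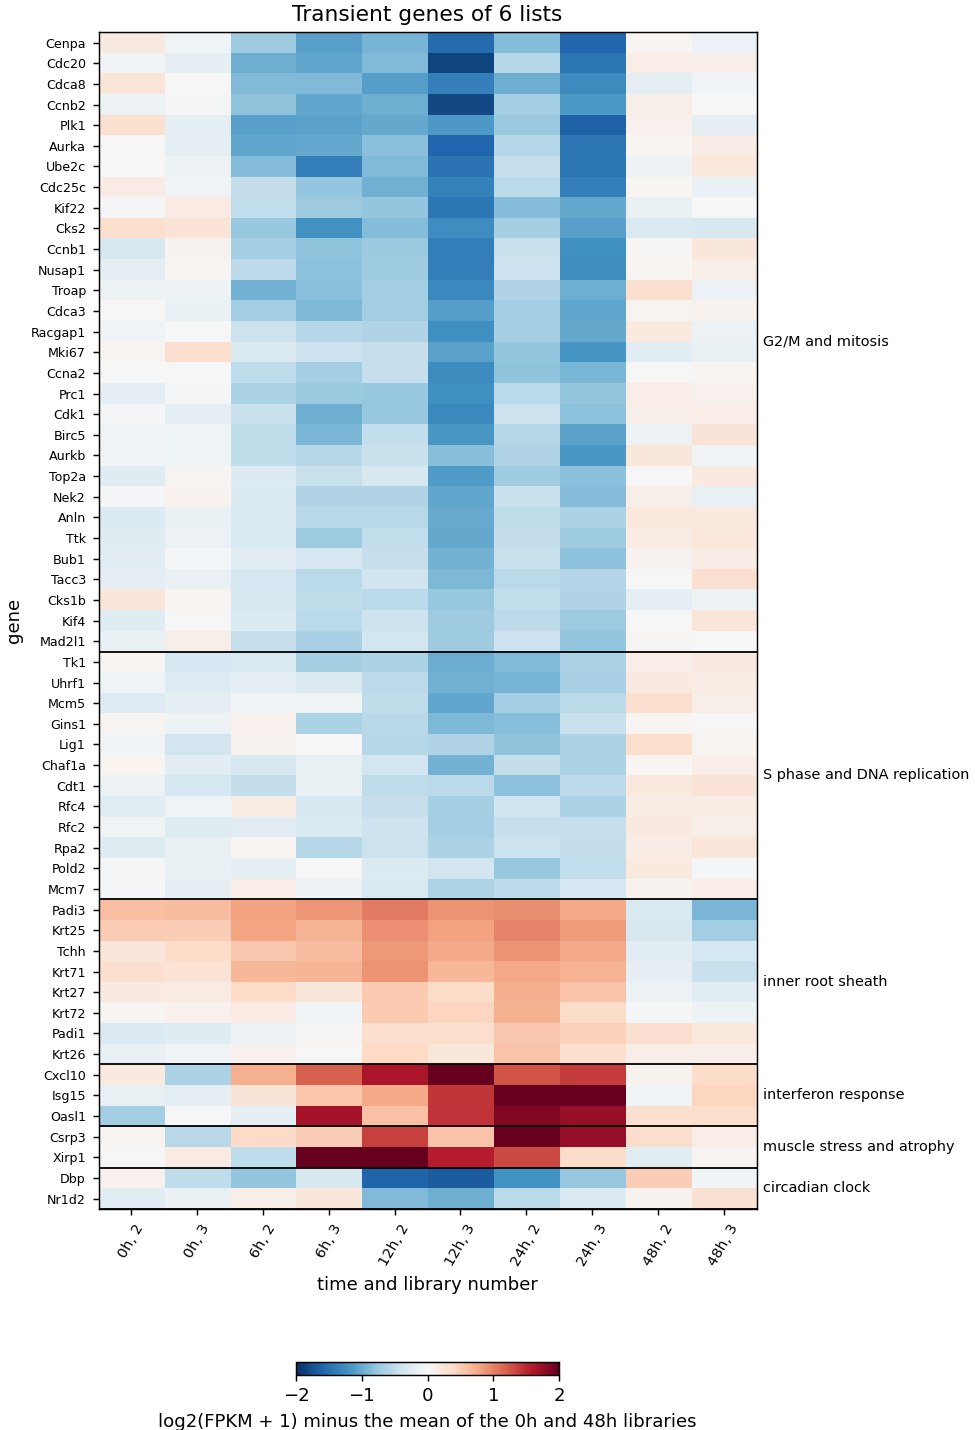
Transient genes of 6 lists (rows) in all 10 libraries (columns, by time and library number), coloured by log2(FPKM + 1) minus the mean of the 0h and 48h libraries. The 30 genes of G2 and mitosis are blue (lower) at 12h and 24h, and the 8 of the inner root sheath are red (higher) there.

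Genes of lipid synthesis and markers of lymphocytes held further falls. Of 21 genes of fatty acid synthesis 3 were transient and lower, beside 1.81% of all genes tested, with a median contrast of -0.32. Without library 2 this count was 0 (0h) and 1 (24h), and without library 3 it was 1 (0h and 12h), 2 (24h) and 0 (48h). Fasn, fatty acid synthase, had 33.6 and 30.1 FPKM at 12h and 25.98 and 26.5 FPKM at 24h, against 38.9 and 43.7 FPKM at 0h and 39.3 and 46.9 FPKM at 48h (contrast -0.53, SE 0.09; limma adjusted p = 0.0221). Dgat2, which makes triglycerides, had a contrast of -0.51 (SE 0.07, limma adjusted p = 0.0149). Part of this contrast came from 48h, which was above 0h (0.48, limma adjusted p = 0.0192). Thrsp, a nuclear protein of lipogenic tissue, had a contrast of -1.52 (SE 0.34, limma adjusted p = 0.0481, and 0.0644 after median-of-ratios scaling). Thrsp had 12.97 and 5.9 FPKM at 12h and 18.5 and 18.7 FPKM at 24h, against 34.9 and 58.2 FPKM at 0h and 19.4 and 57.3 FPKM at 48h. Its groups were barely apart, as 48h library 2 lay just above both 24h libraries. Adrb3, the beta-3 adrenergic receptor of fat cells, had 2.61 and 1.96 FPKM at 12h and 3.85 and 3.6 FPKM at 24h, against 7.73 and 8.73 FPKM at 0h and 6.29 and 8.9 FPKM at 48h (contrast -1.17, SE 0.13; limma adjusted p = 0.0115). It was the transient gene among 16 fat cell markers, whose summed FPKM overlapped between the groups, and Adipoq had a contrast of -0.66 (SE 0.29; limma adjusted p = 0.208).

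Of 8 lymphocyte markers with enough signal to test, of 21 listed, 2 were transient and lower, beside 1.81% of all genes tested. The summed FPKM of the list was 22.48 to 29.71 at 12h and 24h, against 36.22 to 46.43 at 0h and 48h. These 2 calls dropped to 0 without 0h library 2, 12h library 3, 48h library 2 or 48h library 3, and to 1 without any of the other libraries. Cd3g, a chain of the T cell receptor complex, had 4.58 and 3.64 FPKM at 12h and 3.84 and 6.86 FPKM at 24h, against 10.2 and 7.95 FPKM at 0h and 9.2 and 10.3 FPKM at 48h (contrast -0.89, SE 0.16; limma adjusted p = 0.0274). Nkg7, of cytotoxic granules, had a contrast of -0.90 (SE 0.17; limma adjusted p = 0.0291, and 0.0572 after median-of-ratios scaling). Hcst, the DAP10 adaptor of natural killer and T cells, was among the largest falls, with 0.633 and 1.66 FPKM at 12h and 1.78 and 0.616 FPKM at 24h, against 6.29 and 4.22 FPKM at 0h and 5.19 and 4.67 FPKM at 48h (contrast -1.52, SE 0.22; limma adjusted p = 0.0158).

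Among the other large falls, Ptn (pleiotrophin, a heparin-binding growth factor) had 10.96 and 7.88 FPKM at 12h and 8.11 and 9.07 FPKM at 24h, against 15.9 and 21.2 FPKM at 0h and 24.5 and 25.2 FPKM at 48h (contrast -1.17, SE 0.12; limma adjusted p = 0.0115). Gpha2, a subunit of a glycoprotein hormone, had a contrast of -1.23 (SE 0.20; limma adjusted p = 0.0216). Sap25, of the Sin3 corepressor complex, which is named here for its 8 of 8 calls with a library left out, had 8.44 and 8.48 FPKM at 12h and 9.78 and 9.86 FPKM at 24h, against 20.7 and 15.1 FPKM at 0h and 19.5 and 19.1 FPKM at 48h (contrast -0.95, SE 0.10; limma adjusted p = 0.0115). Its 4 middle libraries were close together and far below the rest.

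The basal keratinocyte genes Krt15 and Trp63 were the transient ones of 12 keratinocyte markers, both lower (contrasts -0.72 and -0.41; limma adjusted p = 0.0474 and 0.0379, and 0.0843 and 0.0569 after median-of-ratios scaling), and 0 were transient in 6 of the 8 fits with a library left out. Further single members of lists were Phgdh of serine synthesis (-0.53; 0.0149), the chaperone partner Fkbp4 (-0.35; 0.0463, and 0.101 after that scaling) and the protease gene Mmp15 (-0.53; 0.0453, and 0.0622 after that scaling), all lower. Of 6 red blood cell genes 0 were transient; their summed FPKM was 67.68 to 531.3 at 12h and 24h, against 36.98 to 213.3 at 0h and 48h. Markers of endothelium (14 tested), pericytes and smooth muscle (10), mast cells (8), melanocytes (13), Schwann cells (10), fibroblasts (18) and dermal papilla (11) held 0 transient genes. With 2.58% of all genes transient, counts of 0 in lists of this size do not show that these cell types stayed unchanged.

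Of 50 targets of p53, the factor that DNA damage activates, 0 were transient, a share near the 2.58% of all genes, and 2 were transient and higher under median-of-ratios or quantile scaling and 1 with hair genes left out. Of the 50, 1 passed the contrast in limma as higher and 2 as lower, and the median contrast was -0.01. Cdkn1a, the cell cycle inhibitor p21, had 288 and 252 FPKM at 12h and 258 and 238 FPKM at 24h, against 191 and 189.8 FPKM at 0h and 250.1 and 233 FPKM at 48h (contrast 0.27, SE 0.08; limma adjusted p = 0.0817). Mdm2, which degrades p53, had 19.5 and 18.8 FPKM at 12h and 20.4 and 20.3 FPKM at 24h, against 13.5 and 14.9 FPKM at 0h and 20.2 and 23.7 FPKM at 48h (contrast 0.15, SE 0.08; limma adjusted p = 0.287). In both genes 0h was the low time and 48h lay with 12h and 24h. At 48h 24 of the 50 were higher and 2 lower than at 0h, beside 5.32% and 4.93% of all genes. Their median difference was 0.55, beside -0.01 over all genes tested. Of 31 proteasome genes, 81 genes of cytosolic ribosomal proteins, 29 NRF2 targets, 15 genes of antigen presentation and 24 of sterol synthesis 0 were transient.

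**Figure D5:**
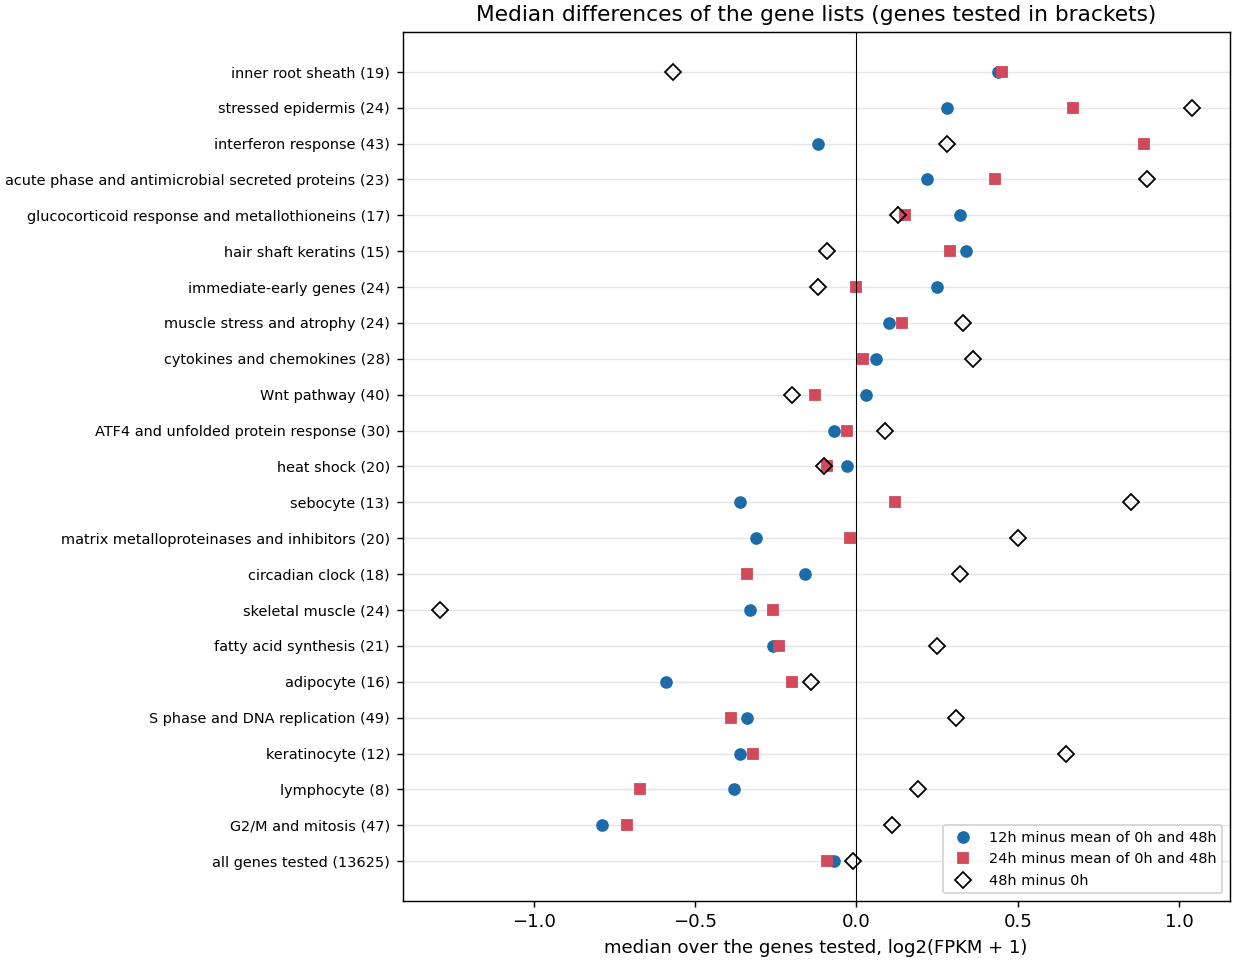
Median difference over the tested genes of each list with at least 1 transient gene (number tested in brackets), on the log2(FPKM + 1) scale, for 12h and for 24h against the mean of 0h and 48h and for 48h minus 0h. G2 and mitosis stood at -0.79 at 12h and -0.71 at 24h with 0.11 for 48h minus 0h, and the interferon response at -0.12 at 12h and 0.89 at 24h.

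How far transient genes were back at 48h could be bounded for few of them. Of the 105 higher genes, 83 did not pass the test of 48h against 0h, 5 were still higher and 17 were lower at 48h than at 0h. Of the 247 lower genes, 233 did not pass, 5 were still lower and 9 were higher at 48h. Over all genes tested, 10.3% differed between 48h and 0h. The point value of 48h minus 0h was within 0.5 times the contrast in 52 of the 105 and 175 of the 247, but its whole 95% interval lay within that bound in 2 and 5 genes. A p that misses the threshold does not show a return to the level of 0h.

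The test of 24h against 12h passed in 0 of the 352 genes in limma, but it passed in no more than 7 (0.0514%) of all genes tested, with 1597 at an unadjusted p under 0.05, so it does not show whether the middle times were alike. By point values 12h was the further from 0h and 48h in 45 of the 105 higher and 148 of the 247 lower genes. Myog, the muscle differentiation factor, was among the 7, with 11.1 and 13.7 FPKM at 24h, against 1.28 and 0.948 FPKM at 12h (difference 2.66, SE 0.18; limma adjusted p = 0.00359), and at 48h it had 29.5 and 21.0 FPKM, so it was not transient.

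The 6h libraries, unused in the test, were often on the side of 12h and 24h. Their mean was above the 0h mean in 94 of the 105 higher genes (57.4% of all genes tested) and below it in 222 of the 247 lower genes (42.6%). Both 6h libraries lay beyond all 4 libraries of 0h and 48h in 54 of the 105 (10.8% of all genes tested) and 128 of the 247 (6.91%). The 0h and 48h values had also chosen these genes, so the counts are a description. In Krt25, at 7451 and 6892 FPKM, and Cdca8, at 12.5 and 12.5 FPKM, they stood between the groups; in Dbp 6h was at 6.85 and 9.84 FPKM and overlapped 0h.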

How the data were processed

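RNA of full-thickness back skin was sequenced at 5 times, with 2 libraries each. The authors deposited 1 gene table of FPKM; the tools, per the submitters' processing notes, were TopHat2 (2.1.1) with Cufflinks (2.2.1), on build mm10. The gene annotation and the scaling of libraries are not stated there, and the unit was read from the tools and the values. Of 24358 rows, 27 with date-like names were left out; 103 name several genes. Columns are numbered 2 and 3 and the labels 1 and 2, so columns were matched to times only. Absolute depth is unknown.

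From the deposited FPKM, log2(FPKM + 1) was computed here for the 13625 genes that reached 1 FPKM in 2 or more of 10 libraries. Differences were tested, two-sided, with limma 3.58.1 (R 4.3.3; 1 mean per time, 8 libraries, intensity trend, 4 residual and 4.57 prior degrees of freedom), with Benjamini-Hochberg adjustment over all genes. The calculation was tested on simulated data. Gene coordinates are from GENCODE M21 (mm10), promoters from RefSeq.

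Named genes are the 15 largest rises and falls among transient genes with a mean of at least 5 FPKM in the higher group, up to 4 transient genes per list, and 14 genes whatever their values; Mki67, Saa3 and Lef1 are among these. Irf7, Oas2 and Myog are 3 of the 7 genes that passed 24h against 12h, and with Padi1, Krt27, Krt72, Krt26 and Sap25 they were chosen after their values were seen. The members and lists were chosen with earlier results of these data known. Alternatives changed the pseudocount, filter, scaling, libraries, times and model.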

Additional observations from a re-analysis of the deposited data

How the results depend on the processing

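The number of genes past the contrast (520) was 0 with no filter on low values, 1 with 2 means in place of 1 per time, 962 without 0h, 129 without 12h, 333 without 24h and 5 to 416 without 1 library. Transient genes (352) numbered 0 with no filter, 1 with 2 means, 956 without 0h, 114 without 12h, 0 when all 4 single comparisons had to pass (276 had all 4 at an unadjusted p under 0.05; this was added after seeing the data) and 4 to 321 without 1 library. For 48h against 0h (1397) the counts were 692 with no filter and 360 to 628 without 1 of its libraries; for 24h against 12h (7), 3 with all 10 libraries fitted and 1 to 14 without 1 library. For 12h against 0h and 48h (262) they were 0 with no filter, 73 without the trend and 0 to 340 without 1 library, and for 24h (138) 2, 4 and 0 to 126. The 276 genes were counted over all genes tested, and 220 of the 352 transient genes were among them. The other transient genes missed an unadjusted p of 0.05 in limma in at least 1 of the 4 comparisons. A time left with 1 library was assumed to vary like the others. The cause of these changes was not tested.

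Same-numbered libraries correlated from -0.104 to 0.216 in their deviations, and over 0.1 in 3 of 6 pairs of times; as not every pair was over 0.1, the libraries were not treated as paired. With a replicate block 399 genes were transient, 25 differed between 24h and 12h, 474 between 12h and the ends and 270 between 24h and the ends.

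Of 65 named genes, 54 kept their side of the threshold after median-of-ratios scaling, 53 after quantile normalization and 9 without 0h library 2. Without the 48h time Lef1 turned to -0.67 (limma adjusted p = 0.0446) and Krt35 to -0.43 (0.108). Absolute depth is unknown, so its effect on low genes was not tested.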
